A study of Homo sapiens with 6 samples.

Results

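The plasminogen activators and their serpin inhibitors were followed here through 5 genes, taken by name from the 58735 genes of the deposited count table. They are PLAU (urokinase), PLAT (tissue plasminogen activator), PLAUR (the urokinase receptor), SERPINB2 (plasminogen activator inhibitor type 2) and SERPINE2 (protease nexin-1). The libraries were made from Mum-2b, a cell line labelled as uveal melanoma. In 3 control libraries the genotype was given as wild type, and in 3 libraries NELFCD had been knocked down with an shRNA (a short hairpin RNA). All knockdown libraries carry 1 hairpin number, and loss of NELFCD cannot be told apart from off-target action of that hairpin. The genes were chosen with the knockdown contrast of these libraries in view, so their own differences between knockdown and control are given as a description, without a test.

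Plasminogen is an inactive blood protein that becomes the protease plasmin when an activator cuts it. Urokinase does this mostly at the cell surface, where it is held by its receptor, and tissue plasminogen activator does it mostly on fibrin. Serpins are inhibitors that offer a protease a bait loop and trap it once the loop is cut. Tumour cells, melanoma included, are known to use this system to break down matrix around them. NELFCD belongs to NELF, a complex that keeps RNA polymerase II paused shortly after it has started a transcript.

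Because NELF acts close to the start of a gene, RefSeq start windows (GRCh38.p14) of some members are shown. The windows are those of SERPINB2, the member that differed most, PLAU, the activator that was lower, and PLAUR, the receptor. Each runs from 250 bases before to 50 bases after the start, in the direction of transcription. Capitals mark 3 sets of letters searched on both strands: TATAAA (the TATA box), TGANTCA (letters bound by AP-1) and GGGCGG (the GC box). A window was found for 4 of the 5 genes, and PLAU and SERPINE2 have a pair of windows each.
SERPINB2, chr18:63887455-63887754, plus strand: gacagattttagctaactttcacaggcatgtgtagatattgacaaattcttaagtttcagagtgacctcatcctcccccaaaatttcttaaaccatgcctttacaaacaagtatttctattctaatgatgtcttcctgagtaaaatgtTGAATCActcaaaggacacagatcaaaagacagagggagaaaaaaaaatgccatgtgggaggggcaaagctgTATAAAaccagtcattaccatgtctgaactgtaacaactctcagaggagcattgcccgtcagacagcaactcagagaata
PLAU first start, chr10:73910360-73910659, plus strand: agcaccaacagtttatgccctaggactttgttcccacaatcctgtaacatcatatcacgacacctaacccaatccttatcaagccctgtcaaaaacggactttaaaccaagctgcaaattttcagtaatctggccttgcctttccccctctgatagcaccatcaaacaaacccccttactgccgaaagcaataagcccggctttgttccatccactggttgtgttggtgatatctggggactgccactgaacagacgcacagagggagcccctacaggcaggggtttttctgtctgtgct
PLAU second start, chr10:73910882-73911181, plus strand: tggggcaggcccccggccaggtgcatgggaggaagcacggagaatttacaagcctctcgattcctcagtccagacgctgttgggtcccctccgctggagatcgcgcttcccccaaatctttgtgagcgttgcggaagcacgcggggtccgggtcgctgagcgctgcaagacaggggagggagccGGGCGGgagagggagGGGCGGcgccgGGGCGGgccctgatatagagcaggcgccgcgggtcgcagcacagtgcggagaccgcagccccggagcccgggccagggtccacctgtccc
PLAUR, chr19:43670120-43670419, minus strand: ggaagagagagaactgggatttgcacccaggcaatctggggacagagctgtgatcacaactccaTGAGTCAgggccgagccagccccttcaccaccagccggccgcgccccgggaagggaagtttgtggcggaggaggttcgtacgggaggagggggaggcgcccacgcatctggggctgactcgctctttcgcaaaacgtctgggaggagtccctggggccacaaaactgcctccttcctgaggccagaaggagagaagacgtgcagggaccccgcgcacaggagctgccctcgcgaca

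The SERPINB2 window holds TATAAA 30 bases and TGAATCA 102 bases upstream of the start, and its GC content is 39.0%, lower than in all but 9.68% of windows. The PLAUR window holds TGAGTCA 186 bases upstream and has 64.0% GC. The second PLAU window holds GGGCGG at 66, 51 and 40 bases upstream and has 70.0% GC, while the first holds none of the 3 motifs and has 48.7% GC. The SERPINE2 windows have 54.0% and 73.7% GC and hold GGGCGG or its reverse complement only. Over all 34943 windows, 11.6% hold TATAAA, 7.72% hold TGANTCA and 44.9% hold GGGCGG, and the median GC content is 58.7%. A match of letters is a description and shows no binding.

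Total counts were 14306733 to 16656630 per library, and 14844 genes passed the filter on low counts, all 5 members among them. NELFCD stood at 65.5, 88.3 and 83.5 CPM (read counts scaled to library size) in control replicates 1 to 3, written controls 1 to 3 from here on, and at 20.7, 37.4 and 40.3 CPM in knockdowns 1 to 3. The groups did not overlap, and an exact permutation test (two-sided) gave p = 0.1, which 3 against 3 libraries cannot go below. Replicate 1 of each group stood apart from replicates 2 and 3, and 7487 genes (50.4%) differed between replicate numbers at an adjusted p under 0.05 (edgeR's quasi-likelihood test, Benjamini-Hochberg). For that reason each value is given by replicate number, and fitted changes come from edgeR's paired fit, which has the replicate number in the model as a block. The paired fit was planned as an alternative, and the planned main fit had no block. Without the block edgeR called 0 of 14844 genes (0.0%), with 954 (6.43%) at an unadjusted p under 0.05, while DESeq2 called 151 and limma-voom 0. The log2 fold change of NELFCD was -1.30 ± 0.11 (SE) in the paired fit (edgeR adjusted p = 0.00046) and -1.27 without the block (adjusted p = 0.53). Over the other fits its adjusted p ran from 3.9e-68 to 1. Of 7 melanocyte lineage markers, MITF stood at 2.67 to 5.38 CPM and TYRP1 at 3.02 to 9.17 CPM, while TYR had 1 count, DCT 8 counts and SOX10 32 counts over the 6 libraries. The labelled lineage is thus weakly marked in this line. Of 5 endothelial markers 1 was called in the paired fit, CDH5, which fell from 123 to 158 CPM in controls to 50.6 to 56.5 CPM in knockdowns, while VWF reached at most 0.685 CPM. The summed endothelial list stood at 126 to 166 CPM in controls and 54.4 to 58.0 CPM in knockdowns, nearly all of it CDH5. TEK reached at most 0.364 CPM, and the ranges of KDR, PECAM1, VWF and TEK overlapped between the groups. The part of CDH5 in the results below was not tested. The summed epithelial list (KRT8 and KRT18 in the main, with 1 gene of 5 called) stood at 686 to 1302 CPM and 1058 to 1462 CPM. Its other genes were barely detected: CDH1 had 1 count and EPCAM 18 counts over the 6 libraries. KRT19 stood at 0.625 to 0.685 CPM in controls and 0.0606 to 0.133 CPM in knockdowns. Of all tested genes 13.5% were called in the paired fit. The summed fibroblast and immune markers (5 genes each) stayed at or below 2.12 and 0.991 CPM.

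**Figure D1:**
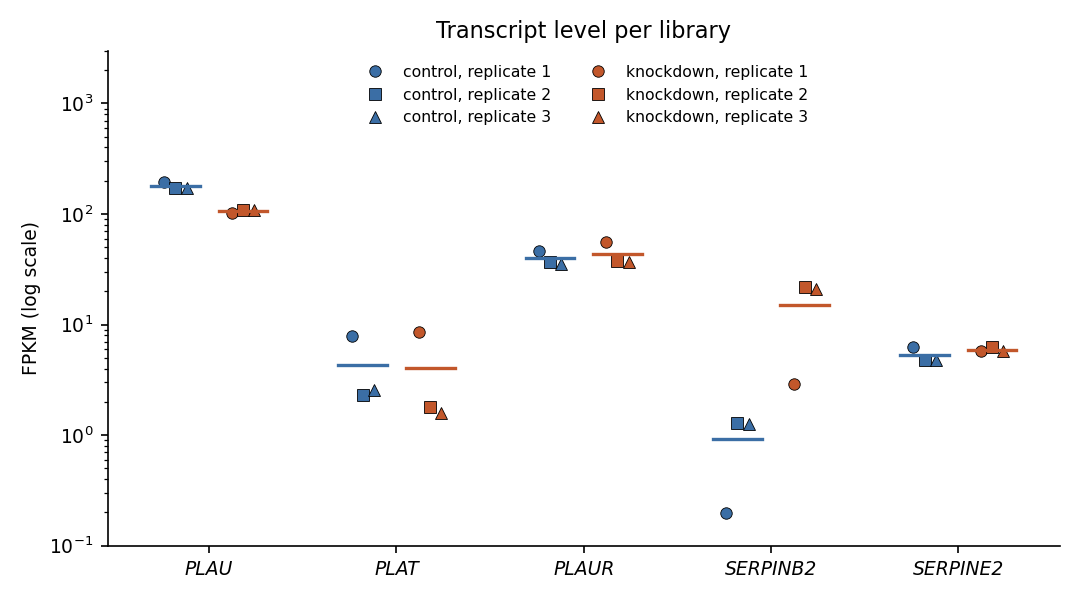
FPKM per library (log axis) for the 5 members, with controls in blue and knockdowns in orange, replicate numbers as symbols and horizontal bars at the group mean of 3 libraries. The knockdown libraries sit above all controls for SERPINB2 and below them for PLAU, and replicate 1 sits apart for PLAT and SERPINB2.

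Urokinase RNA was lower in the knockdown, while the groups overlapped for tissue plasminogen activator RNA. PLAU (ENSG00000122861, chromosome 10, 73909177 to 73917497, hg38) stood at 588, 509 and 505 CPM in controls 1 to 3 and at 312, 324 and 323 CPM in knockdowns 1 to 3. Every knockdown library lay below every control library, and the knockdown libraries were close to each other. The group means were 534 ± 46.5 and 320 ± 6.98 CPM (SD, n = 3), and within replicate numbers 1 to 3 the knockdown held 53.0%, 63.7% and 63.9% of its control. In the paired fit the log2 fold change was -0.74 ± 0.07 (SE), and it was -0.65 in replicates 2 and 3 alone. In RNA from whole cultures, fewer cells that express a gene and less RNA per cell cannot be told apart. Of PLAU's exon bases 31.1% lie opposite exons of C10orf55 on the other strand, a gene with 16 to 64 counts per library against 4689 to 8573 for PLAU, so the split of reads between them is uncertain if strand was not used.

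PLAT (ENSG00000104368, chromosome 8, 42175233 to 42207724) showed a far larger gap between replicate numbers than between groups. It stood at 53.7, 15.1 and 16.9 CPM in controls 1 to 3 and 59.7, 11.9 and 10.6 CPM in knockdowns 1 to 3. The groups overlapped, because replicate 1 of each group lay above all other libraries. The difference between replicate numbers passed the test (edgeR adjusted p = 1.6e-05), and replicate 1 stood 3.36-fold above the mean of the other two in controls and 5.31-fold in knockdowns. Within replicate numbers the knockdown held 111% (95% interval 101% to 123%), 79.2% (64.9% to 96.5%) and 62.5% (50.9% to 76.5%) of its control. These exact intervals cover counting error only, and replicate 1 lay on the other side of 100% from replicates 2 and 3. The paired log2 fold change was -0.23 ± 0.15 (SE), and -0.51 in replicates 2 and 3 alone.

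The urokinase receptor PLAUR (ENSG00000011422, chromosome 19, 43646095 to 43670547) differed little between the groups. It stood at 212, 162 and 158 CPM in controls 1 to 3 and at 260, 168 and 165 CPM in knockdowns 1 to 3. The groups overlapped, and replicate 1 was the highest library of each. Within replicate numbers the knockdown was at 123% (117% to 129%), 104% (98.2% to 110%) and 104% (98.6% to 110%) of its control, so the counting interval lay above 100% in replicate 1 alone. The paired log2 fold change was 0.14 ± 0.07 (SE), against 0.06 in replicates 2 and 3 alone. PLAUR differed between replicate numbers (edgeR adjusted p = 0.00078). With PLAU lower and PLAUR near its control level, the ratio of PLAU to PLAUR in FPKM (fragment counts scaled to gene length and library size) was 4.18, 4.74 and 4.82 in controls and 1.81, 2.91 and 2.96 in knockdowns. By this measure the ligand RNA stayed above that of its receptor in all 6 libraries, by a smaller margin in the knockdown. The gene length used is the union of exons over all transcripts, 2950 bases for PLAU and 4457 for PLAUR. With other transcript lengths the ratio would differ, so the order of the 2 RNAs is not settled.

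SERPINB2 had the largest rise of the 14844 genes tested in the paired fit. The members were chosen with this contrast in view, so that rank is a description. SERPINB2 (ENSG00000197632, chromosome 18, 63871692 to 63903890) stood at 0.548, 3.54 and 3.44 CPM in controls 1 to 3 and at 8.37, 59.7 and 57.4 CPM in knockdowns 1 to 3. All knockdown libraries lay above all controls, and in each group replicate 1 was far below the others. Raw counts were 8, 50 and 55 in controls and 126, 985 and 837 in knockdowns. The lowest library, control replicate 1, rests on 8 counts, which give a 95% Poisson interval of 0.237 to 1.08 CPM. The level thus differed several-fold between replicate numbers within each group: the mean of replicates 2 and 3 was 6.36-fold that of replicate 1 in controls and 6.99-fold in knockdowns. That difference between replicate numbers passed the test (edgeR adjusted p = 3.4e-06). The ratio of knockdown to control was nevertheless alike in the 3 replicate numbers, at 15.3-fold (95% interval 7.52 to 36.2), 16.9-fold (12.7 to 22.9) and 16.7-fold (12.7 to 22.3). On the log2 scale the paired fold change was 4.05 ± 0.12 (SE), the SD over the 3 pairs was 0.08, and the fit without the block gave 4.05 ± 0.97 (SE). Counting error alone spans 2.91 to 5.18 in replicate 1 (95% interval, log2 scale), so the 3 ratios are closer than these counts can resolve. Of SERPINB2's exon bases 19.9% are shared with SERPINB10 on the same strand, a gene with 0 counts in the controls and 0, 2 and 5 in knockdowns 1 to 3.

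SERPINE2 (ENSG00000135919, chromosome 2, 223975112 to 224039319), which inhibits thrombin and both activators, showed a small difference that depended on the replicate number. It stood at 56.3, 41.8 and 42.6 CPM in controls 1 to 3 and at 53.2, 56.0 and 51.7 CPM in knockdowns 1 to 3. The groups overlapped, since control replicate 1 was the highest library of all. The knockdown was at 94.4% (85.5% to 104%), 134% (121% to 149%) and 122% (109% to 135%) of its control, so the counting interval held 100% in replicate 1 and lay above it in replicates 2 and 3. The paired log2 fold change was 0.20 ± 0.10 (SE), and 0.35 in replicates 2 and 3 alone. Over the 5 members the groups did not overlap for 2 (SERPINB2 above, PLAU below), where 14.9% of all tested genes had groups that did not overlap, 7.52% above and 7.36% below. Between replicate numbers 3 of the 5 members differed (PLAT, PLAUR and SERPINB2), where 50.4% of all tested genes did, and PLAU (edgeR adjusted p = 0.63) and SERPINE2 (adjusted p = 0.29) did not pass. Without knockdown replicate 1 all 5 passed, and in the other 11 alternatives the count stayed at 3. The labels do not say that the replicates were separate cultures, so these p-values measure only the spread between these libraries.

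**Figure D2:**
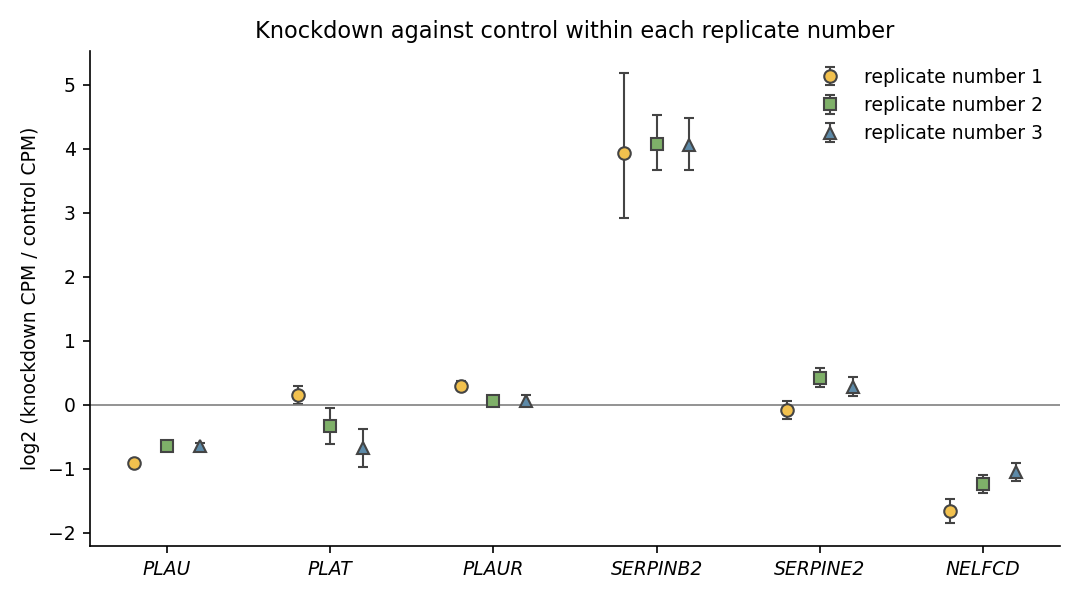
Log2 ratio of knockdown to control CPM within replicate numbers 1 to 3 for the members and NELFCD, with 95% exact intervals that cover counting error only. The 3 SERPINB2 ratios lie between 3.93 and 4.08, those of PLAU between -0.91 and -0.65, and those of PLAT and SERPINE2 fall on both sides of 0.

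Compared per gene length, SERPINB2 was last of the 5 genes by its control mean and the third by its knockdown mean, though it stayed last in knockdown replicate 1 (2.93 FPKM, against 5.74 for SERPINE2 and 8.66 for PLAT). In controls the mean FPKM was 180 ± 13.1 for PLAU, 39.7 ± 6.16 for PLAUR, 5.25 ± 0.836 for SERPINE2, 4.27 ± 3.2 for PLAT and 0.916 ± 0.624 for SERPINB2 (SD, n = 3). Neighbours in that order had ranges that did not overlap, except SERPINE2 and PLAT. In knockdowns the mean FPKM was 107 ± 4.6 for PLAU, 43.6 ± 10.9 for PLAUR, 15.1 ± 10.6 for SERPINB2, 5.94 ± 0.304 for SERPINE2 and 4.01 ± 4.02 for PLAT (SD, n = 3). There the range of SERPINB2 overlapped those of SERPINE2 and PLAT, which overlapped each other again. The FPKM ratio of SERPINB2 to SERPINE2 was 0.0315, 0.274 and 0.261 in controls 1 to 3 and 0.510, 3.45 and 3.59 in knockdowns 1 to 3. By FPKM SERPINB2 was thus below SERPINE2 in the controls and in knockdown replicate 1. It was above SERPINE2 in knockdown replicates 2 and 3. This order rests on exon-union lengths of 2748 bases for SERPINB2 and 8891 for SERPINE2. With other transcript lengths it could change, as could the order of all 5 genes.

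The summed RNA of the 2 activators was lower in the knockdown, while that of SERPINB2 and SERPINE2 was higher. The FPKM sum of PLAU and PLAT was 203, 176 and 174 in controls 1 to 3 and 110.1, 111.6 and 110.5 in knockdowns 1 to 3. All knockdown libraries lay below all controls, and nearly all of this sum was PLAU. PLAT was 3.91% of it in control replicate 1 and 7.87% in knockdown replicate 1, against 1.30% to 1.61% in the other 4 libraries. The FPKM sum of SERPINB2 and SERPINE2 was 6.41, 6.03 and 6.06 in controls 1 to 3 and 8.67, 28.0 and 26.6 in knockdowns 1 to 3, again without overlap. Both sums follow genes chosen for their difference in these libraries. These are RNA levels, and protein and protease activity were not measured.

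Other genes of the system were taken from 7 lists with 82 different genes, all matched, of which 43 passed the filter. In the paired fit 5 of the 43 rose and 13 fell (edgeR adjusted p under 0.05, 41.9%), with a median log2 fold change of -0.15. Of all tested genes 13.5% were called, 5.48% higher and 8.01% lower, with a median of 0.00. The lists were drawn up with earlier results of these data known, so the 2 shares are a description and the gap between them was not tested. Higher calls made up 27.8% of the list calls and 40.6% of all calls, and with upper-quartile scaling 27.8% and 54.9%, a scaling that moved the median of all genes by 0.05. In replicates 2 and 3 alone 7 rose and 16 fell. Without the block edgeR called 0 of the 43, with 7 at an unadjusted p under 0.05, limma-voom called 0 and DESeq2 called 2, which were FGF2 and LTBP1. The calls below are those of edgeR's paired fit.

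Plasminogen itself was at 0 counts in all 6 libraries, which allows at most 0.210 CPM (3 counts) in the shallowest, so its RNA was not detectable at this depth. Of 16 fibrinolytic proteases and other inhibitors 4 were tested, 2 rose and 0 fell. Thrombomodulin (THBD), an endothelial cofactor that turns thrombin toward protein C, rose by 0.82 on the log2 scale (edgeR adjusted p = 0.00032), with means of 134 ± 86.4 CPM in controls and 231 ± 134 CPM in knockdowns (SD, n = 3) and groups that overlapped. Neuroserpin (SERPINI1), an inhibitor of tissue plasminogen activator, rose from 4.94 to 8.54 CPM (0.78, adjusted p = 0.018) and did not pass without replicate 2 of both groups (adjusted p = 0.068). Factor XII (F12) stood at 0.77 (adjusted p = 0.11) and SERPINE3 at 0.70 (adjusted p = 0.2). Of 6 tested plasminogen-binding surface proteins 0 passed in edgeR's paired fit, and 0 reached an unadjusted p under 0.05 without the block, where DESeq2 and limma-voom also called 0. Leaving replicate 1 of both groups out, with or without the block, gave 1 higher call, S100A10, and 1 lower call, HMGB1, and the paired fit with no filter gave 1 higher call, KRT8. These 3 genes were chosen after their values were seen. The abundant ENO1 (3015 and 3067 CPM) and ANXA2 (2375 and 2411 CPM), a plasminogen docking protein, were at 0.03 and 0.02 on the log2 scale.

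The list of receptors that clear activator and inhibitor complexes from the cell surface, with associated proteins, was lower in part. Of 7 tested, 2 fell and 0 rose, with a median log2 fold change of -0.30. MRC2, the collagen uptake receptor that associates with the urokinase receptor, fell by 1.28 on the log2 scale (adjusted p = 0.0012). LRP1, the main clearance receptor of inhibited urokinase, fell by 0.76 (adjusted p = 0.0014). For MRC2 and LRP1 the groups overlapped, because replicate 1 was far above the rest in each group, as in LRP1 at 285, 54.5 and 57.3 CPM in controls 1 to 3 and 147, 37.0 and 34.5 CPM in knockdowns 1 to 3. IGF2R (-0.03, adjusted p = 0.75) and LRPAP1 (-0.02, adjusted p = 0.88) did not pass.

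Among 11 tested membrane partners of the urokinase receptor 5 fell and 0 rose, with a median of -0.34. The leukocyte integrin chain ITGB2 fell by 1.32 (adjusted p = 0.0075), the vitronectin receptor chain ITGB5 by 0.81 (adjusted p = 0.0036), caveolin CAV1 by 0.56 (adjusted p = 0.016) and the HGF receptor MET by 0.38 (adjusted p = 0.031). ITGA3 (-0.10, adjusted p = 0.26) and ITGB1 (-0.08, adjusted p = 0.51) did not pass. ITGA5 (-0.34), the fibronectin receptor chain, was the other gene that fell. Among these 5 genes the groups overlapped except for ITGB5, and ITGB2 stood at only 1.09 and 1.23 CPM in knockdowns 2 and 3. Of 9 tested substrates and proteases downstream of plasmin or urokinase 6 fell and 1, TGFB1 (0.26, adjusted p = 0.024, chosen after its values were seen), rose. This list held 16 genes, and the paired fit with no filter tested 15 of them, of which 7 fell and 2 rose. FGF2, a growth factor stored in matrix, stood at 88.4, 99.1 and 96.2 CPM in controls 1 to 3 and 30.5, 41.0 and 44.4 CPM in knockdowns 1 to 3, a fall of 1.30 (adjusted p = 0.00015) with groups that did not overlap. The latent TGF-beta binding protein LTBP1 fell by 1.996 (adjusted p = 0.0036), the gelatinase MMP2 by 1.91 (adjusted p = 0.038) and VEGFA by 0.72 (adjusted p = 0.0024). Groups overlapped for MMP2 and VEGFA and not for LTBP1. MMP2 stood at 8.43, 2.19 and 1.13 CPM in controls 1 to 3 and at 3.92, 0.0606 and 0.137 CPM in knockdowns 1 to 3. In knockdowns 2 and 3 that is below 3 counts (0.180 and 0.205 CPM), so its fall rests on few reads. MMP14 and F2R (both -0.68, chosen after their values were seen) were the others that fell, and for both the groups did not overlap. FN1 (-0.35, adjusted p = 0.051) and MST1 (-0.20, adjusted p = 0.74) did not pass. Over the 9 fits that held the replicate number or left replicate 1 out, FN1 passed in 5 and MST1 in 0. Of 3 tested relatives of the receptor's Ly6 fold 0 passed in edgeR's paired fit, with CD59 at -0.01, PINLYP at -0.43 and LYPD6 at -0.63, and 0 reached an unadjusted p under 0.05 without the block, where DESeq2 and limma-voom also called 0. LYPD6, chosen after its values were seen, was called lower in 2 of the 9 fits, those that left replicate 1 of both groups out. Without replicate 2 of both groups MET, MMP2, ITGA5 and the thrombin receptor F2R lost their calls (adjusted p = 0.069, 0.054, 0.056 and 0.056). TGFB1 passed in 6 of the 9 fits that held the replicate number or left replicate 1 out. It lost its call with DESeq2 and the block and without replicate 2 or 3 of both groups (adjusted p up to 0.22). In the fit without the block, leaving out control replicate 1 turned the log2 fold changes of MRC2, LRP1, VEGFA and ITGA5 to 0.27, 0.38, 0.40 and 0.25, and leaving out knockdown replicate 1 turned that of TGFB1 to -0.19.

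**Figure D3:**
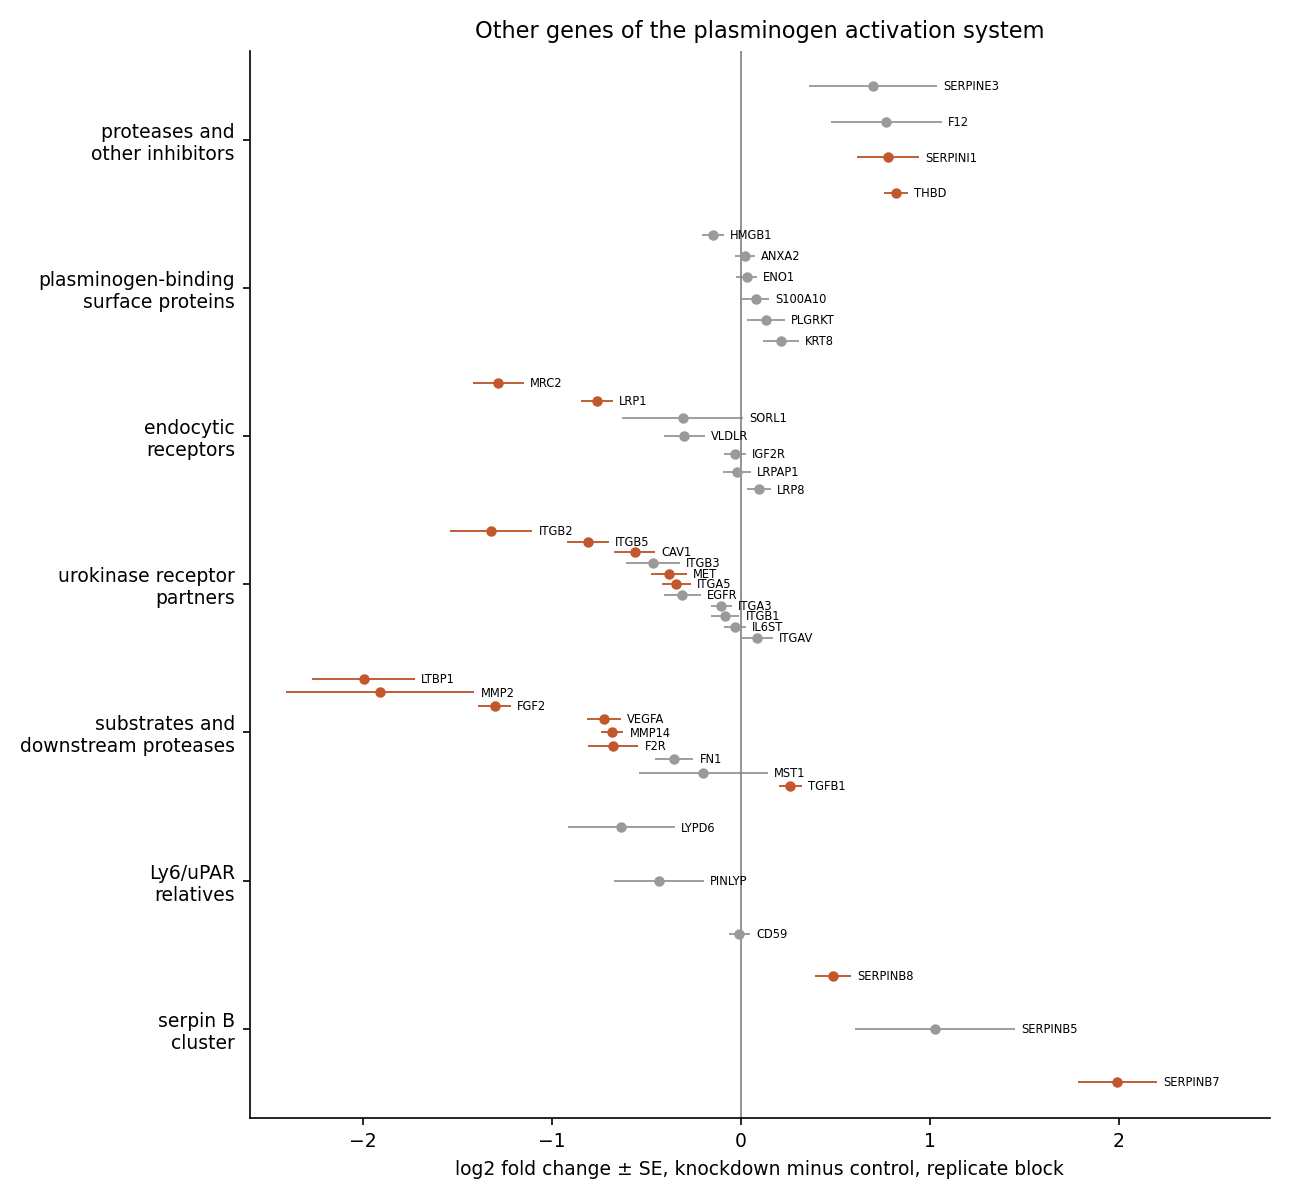
Log2 fold change ± SE (knockdown minus control, edgeR's paired fit) of the 43 tested genes of the 7 lists, grouped by list and drawn once per list, with genes past an adjusted p of 0.05 in orange and the others in grey. Most orange points lie left of 0 except THBD, SERPINI1, TGFB1, SERPINB7 and SERPINB8.

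SERPINB2 lies in a cluster of clade B serpin genes on chromosome 18, and both tested genes within 250 kb of it rose. SERPINB7 stood at 0.617, 6.58 and 2.88 CPM in controls 1 to 3 and at 3.26, 19.3 and 15.4 CPM in knockdowns 1 to 3, a log2 fold change of 1.99 ± 0.21 (SE, adjusted p = 0.0012). As with SERPINB2, replicate 1 was the lowest library in each group, though knockdown replicate 1 lay below control replicate 2. SERPINB8 rose from 25.9 to 36.9 CPM (0.49, adjusted p = 0.014) and did not pass without replicate 2 of both groups (adjusted p = 0.096). SERPINB5 stood at 1.03 (adjusted p = 0.14), and the other 6 listed genes of the cluster did not pass the filter on low counts.

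Around all 5 members 40 neighbouring genes within 250 kb were tested, of which 4 rose and 3 fell in the paired fit (17.5%, against 13.5% of all tested genes). The 4 that rose include SERPINB7 and SERPINB8, which are also counted among the list genes above. Without the block edgeR called 0 of the 40, with 1 at an unadjusted p under 0.05. The unblocked counts from DESeq2 and limma-voom were 0 too. Beside PLAU, 2 of 15 neighbours fell, ZSWIM8 (-0.42, adjusted p = 0.018) and the actin linker VCL (-0.27, adjusted p = 0.038). Beside PLAT, SLC20A2 rose (0.33, adjusted p = 0.017) and KAT6A fell (-0.29, adjusted p = 0.024). Beside PLAUR, 1 of 14 rose, ETHE1 (0.43, adjusted p = 0.035), and beside SERPINE2 0 of 3 passed. Of these 5 genes, only ZSWIM8 passed in more than 6 of the 9 fits that held the replicate number or left replicate 1 out. Without the block, ZSWIM8 turned to 0.36 without control replicate 1 and ETHE1 to -0.09 without knockdown replicate 1.

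The genes most like each member differed from member to member over the 6 libraries, which share replicate numbers and groups. Across log2(CPM + 1) values, SERPINB2 was most like ADM (r = 0.995), VDR (0.994) and ACSL1 (0.990), and 2.24% of the 10115 protein-coding genes compared had r above 0.9 with it. ADM, which encodes adrenomedullin, stood at 12.3, 16.3 and 16.2 CPM in controls and 20.8, 44.8 and 41.5 CPM in knockdowns. The correlation compares the shape over libraries and not the size of a change. ACSL1 stood at 41.2, 43.7 and 43.2 CPM in controls 1 to 3 and at 44.3, 50.5 and 49.7 CPM in knockdowns 1 to 3. PLAU was most like STK38L (0.999), TSKU (0.998) and PDCD10 (0.996), with r above 0.9 for 3.04% of genes. PLAT was most like MAP3K10 (0.999), CSTB (0.999) and PDLIM4 (0.999), and PLAUR most like GRN (0.999), LIMA1 (0.998) and GLRX (0.997), with r above 0.9 for 17.4% and 11.5% of genes. SERPINE2 was most like NRIP1 (0.992), RCOR3 (0.983) and PGK1 (0.982), with r above 0.9 for 0.534% of genes. Between the members r ran from -0.864 (PLAU with SERPINB2) to 0.915 (PLAT with PLAUR, both highest in replicate 1 of each group).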

How the data were processed

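RNA was measured by RNA-seq in 6 Mum-2b libraries, extracted with 1 of 2 kits that are not assigned to libraries, per the labels' protocols. The authors deposited raw counts per gene and FPKM, with identifiers and coordinates, per the file headers. The submitters' processing notes name hg38. Which aligner and counter were run, and whether strand was used, is not given in the sources used here. Each deposited FPKM value equals the count over gene length and over 1 constant per library, 0.9816 to 1.0735 times the library's total count. Coordinates matched GENCODE release 29 for 58690 of 58735 genes, and exon overlaps were computed from it.

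Counts were tested with edgeR 4.0.16 in R 4.3.3 (filterByExpr, TMM scaling, robust quasi-likelihood F-tests, Benjamini-Hochberg over all 14844 tested genes). The unpaired fit had no replicate term, and the paired fit had the replicate number as a block. Deviations from the group means went together within a number (correlations across genes of 0.878, 0.741 and 0.732 for numbers 1 to 3). Replicate 1 stood apart in both groups, which by itself moves replicates 2 and 3 of each group alike around the group mean. Correlations between different numbers were not computed. These values thus do not show that number 2 pairs with 2 and number 3 with 3, and the labels state no pairing. Biological variation (common coefficient) was estimated at 32.6% by the unpaired and 8.2% by the paired fit, on 4 and 2 residual degrees of freedom. DESeq2 1.42.0 and limma-voom (limma 3.58.1) were alternatives. The SE of an edgeR log2 fold change was computed as the absolute log2 fold change over the square root of its F statistic. The scripts were tested on simulated counts. CPM uses TMM-scaled library sizes, and 95% intervals are exact (Poisson, or binomial for ratios, from SciPy 1.17.1) and cover counting error only: without molecular identifiers, reads cannot be taken as separate molecules. Sequences are from RefSeq.

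The members and the lists were chosen with earlier results of these data known. Some genes of the system are not reported here and stay out of the lists. Genes named were the members and NELFCD. Per list and per member's neighbours, up to 4 genes past the threshold in the paired fit with the largest change and at least 1 CPM, and up to 2 of highest level not past it, were taken. For likeness the 3 protein-coding genes of at least 5 CPM with the highest Pearson correlation were named. The fit with both the block and limma-voom, and the fit of replicates 2 and 3 alone, were chosen after seeing the data.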

Additional observations from a re-analysis of the deposited data

How the results depend on the processing

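Counts of called genes rest on the replicate number in the model. Without a replicate block edgeR called 0 genes, 0 list genes and 0 neighbours with each scaling, filter and left-out library, and DESeq2 called 151, 2 and 0. With the replicate block the counts were 2002, 18 and 7, with DESeq2 and the block 1346, 18 and 4, with upper-quartile scaling 2184, 18 and 7, with no filter 2888, 24 and 10, and with limma-voom 2130, 20 and 8. Replicates 2 and 3 alone gave 3758, 23 and 11. Leaving 1 replicate number out of the paired fit gave 4090, 25 and 12 without number 1, 932, 14 and 1 without number 2, and 1760, 21 and 3 without number 3. The count of genes that differed between replicate numbers was 7487 and ran from 6141 to 8474 over 12 alternatives. The members' log2 fold changes without the block kept their sign for PLAU, SERPINB2 and SERPINE2 in all alternatives run. PLAT, at -0.06, turned to 0.0087 with upper-quartile scaling, 0.77 without control replicate 1, and 0.29 and 0.31 without knockdown replicates 2 and 3, and stood at -1.35 without knockdown replicate 1. PLAUR, at 0.16, turned to -0.10 without knockdown replicate 1 and stood at 0.30 without control replicate 1. SERPINB2 ran from 2.76, on log2(FPKM + 1), to 4.53. The cause of these differences was not tested. Depth limits SERPINB2 in control replicate 1 (8 counts).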
